A study of Caenorhabditis elegans with 2 samples.

Results

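LSL-1 peaks in divergent shared promoters are the peaks that lie between, or at the start of, a pair of protein-coding genes transcribed away from each other. A peak was taken if its summit, the base with the strongest signal, lay in the promoter window of at least 1 gene on the plus strand and at least 1 gene on the minus strand, and more than 200 bp from any tRNA gene. Each window covers the 1000 bp before and the first 200 bp after a gene's annotated 5′ end. The rule gave 763 of 3897 peaks (19.6%), and the tRNA limit had removed 8. A further 1458 peaks lay in promoter windows of 1 strand alone, 48 promoter peaks lay within 200 bp of a tRNA gene, and 1628 lay outside promoter windows. Among these 3897 peaks the rule used position alone, so rank within them, sequence and the identity of the genes were not part of it. The peaks themselves are the strongest regions of a longer list, so strength did decide which regions could be taken.

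The data come from chromatin immunoprecipitation followed by sequencing (ChIP-seq) on whole Caenorhabditis elegans. Both samples were mixed-sex young adults, 69 h old, of strain OP720, with the genotype unc-119(tm4063) and the transgene wgIs720, which carries lsl-1 fused to TY1, EGFP and 3xFLAG tags together with a wild-type copy of unc-119. There were 2 biological replicates in 1 group, with no untreated or mutant group to compare, and chromatin was precipitated with an antibody against GFP. The submitters deposited a region list for each replicate, a list for both pooled, and the 3897 pooled regions kept by irreproducible discovery rate (IDR), which are called peaks here. Whole animals were used, so signal from germline and body cells was not separated, and the transgene and the native gene both carry lsl-1 sequence. Read counts were not part of the lists, which leaves the depth unknown, and intervals cover the counting of regions or genes alone. Neighbouring regions and genes are not independent, and p-values describe these lists, not the spread between animals.

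LSL-1 is a C2H2 zinc-finger transcription factor that acts in the C. elegans germ line, where it is known for roles in meiosis and in the expression of germline genes. A divergent promoter is a stretch of DNA from which a gene on each strand is transcribed outward, so that 1 bound factor sits upstream of both. In compact genomes such as that of C. elegans many genes for basic cell functions are arranged in this way. Many worm transcripts are trans-spliced, and for those the annotation may place the 5′ end some way inside the primary transcript.

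The sequences at the summits of the strongest such peaks show the words that the results below turn on. Each runs from 50 bp before to 50 bp after the summit, is read 5′ to 3′ on the plus strand of ce11 (WBcel235, the RefSeq assembly), and is named by its minus-strand gene and then its plus-strand gene. Capitals mark 4 words on either strand. The first is TACNGTA, known for this protein from earlier work and also prominent over all peaks of these lists, and another is GGCGCA. The remaining ones, ACCGTA and GAGACC, were among the 8 leading words of a search described further on.
rpl-20 and Y17G9B.5, chrIV:4750017-4750117: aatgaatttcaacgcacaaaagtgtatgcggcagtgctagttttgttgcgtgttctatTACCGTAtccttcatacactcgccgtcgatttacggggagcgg
K09H11.9 and rga-3, chrV:5717399-5717499: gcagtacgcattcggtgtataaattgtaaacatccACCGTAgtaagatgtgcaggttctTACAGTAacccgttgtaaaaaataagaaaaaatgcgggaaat
cct-8 and Y55F3AR.2, chrIV:1094310-1094410: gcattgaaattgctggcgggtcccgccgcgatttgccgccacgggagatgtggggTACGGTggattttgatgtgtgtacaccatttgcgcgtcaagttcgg
ncap-1 and Y110A2AR.1, chrII:2919553-2919653: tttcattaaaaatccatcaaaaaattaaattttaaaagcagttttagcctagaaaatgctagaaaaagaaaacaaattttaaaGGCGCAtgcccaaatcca
rpl-15 and K11H12.8, chrIV:654879-654979: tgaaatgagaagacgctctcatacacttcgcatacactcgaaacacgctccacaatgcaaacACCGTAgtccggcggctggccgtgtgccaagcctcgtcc
H05C05.4 and H05C05.1, chrIII:2946780-2946880: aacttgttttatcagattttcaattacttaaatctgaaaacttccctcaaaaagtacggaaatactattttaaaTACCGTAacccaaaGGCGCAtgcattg

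The peak between rpl-20, which encodes a protein of the large ribosomal subunit, and Y17G9B.5 ranked 5 among all peaks by signal in the pooled list, 5 in replicate 1 and 3 in replicate 2. Its summit lay 289 bp upstream of rpl-20 and 173 bp upstream of Y17G9B.5, and the only capitals in its sequence are the word TACCGTA, a form of TACNGTA. The peak between K09H11.9 and rga-3 ranked 6 in the pooled list, 6 in replicate 1 and 7 in replicate 2, with the word TACAGTA close to its summit and an ACCGTA on its left. The peak between cct-8, a subunit of the CCT chaperonin that folds tubulin and actin, and Y55F3AR.2 ranked 8 in the pooled list and in each replicate. Its sequence, like that at rpl-15 and K11H12.8 (ranks 13, 13 and 17), has no full TACNGTA but holds ACCGTA or its reverse complement. The peak between ncap-1 and Y110A2AR.1 (ranks 12, 11 and 13) has only GGCGCA, near the right end of the window, and the peak between H05C05.4 and H05C05.1 (ranks 14, 15 and 12) has TACCGTA and GGCGCA side by side. The strongest peaks thus kept nearly the same place in both replicates while their words differed.

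Where the gap was short the whole stretch between the 5′ ends is shown, because it holds the promoter of both genes. Each begins just after the 5′ end of the minus-strand gene and stops just before that of the plus-strand gene, with the same capitals.
coh-4 and pid-5, chrV:4175641-4175881: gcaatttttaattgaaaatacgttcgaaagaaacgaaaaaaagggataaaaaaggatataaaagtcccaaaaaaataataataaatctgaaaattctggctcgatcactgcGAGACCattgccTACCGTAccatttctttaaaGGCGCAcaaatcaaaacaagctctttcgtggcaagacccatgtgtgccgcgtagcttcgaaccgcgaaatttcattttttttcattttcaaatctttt
T26A8.4 and pdtf-1, chrIV:8432894-8433037: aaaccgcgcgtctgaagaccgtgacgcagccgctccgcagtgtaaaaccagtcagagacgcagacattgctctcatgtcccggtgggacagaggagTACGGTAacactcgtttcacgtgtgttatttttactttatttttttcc
R05D3.8 and rfp-1, chrIII:8358328-8358621: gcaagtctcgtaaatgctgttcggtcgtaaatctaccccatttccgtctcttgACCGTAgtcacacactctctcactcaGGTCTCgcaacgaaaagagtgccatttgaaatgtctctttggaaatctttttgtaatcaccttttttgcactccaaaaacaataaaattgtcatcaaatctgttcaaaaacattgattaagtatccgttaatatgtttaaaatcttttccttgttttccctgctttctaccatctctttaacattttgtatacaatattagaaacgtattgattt
gei-14 and slc-25A32, chrII:8276232-8276297: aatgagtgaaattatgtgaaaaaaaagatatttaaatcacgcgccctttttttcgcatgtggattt
rpn-5 and scc-1, chrII:4698428-4698720: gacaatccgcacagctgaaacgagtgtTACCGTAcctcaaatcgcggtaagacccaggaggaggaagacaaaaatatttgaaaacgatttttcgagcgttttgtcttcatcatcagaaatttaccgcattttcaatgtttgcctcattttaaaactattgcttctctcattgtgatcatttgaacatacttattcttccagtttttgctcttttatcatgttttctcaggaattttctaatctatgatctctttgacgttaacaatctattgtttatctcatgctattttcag

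The first of these lies between coh-4, a kleisin subunit of meiotic cohesin, and pid-5, a protein of the piRNA pathway. It ranked 43 in the pooled list, 38 in replicate 1 and 64 in replicate 2, and its summit is 171 bp from coh-4 and 71 bp from pid-5. On the coh-4 side of the summit GAGACC comes first, the word TACCGTA follows closely, and then comes GGCGCA. The stretch of T26A8.4 and pdtf-1 (ranks 169, 183 and 148) has a single TACGGTA and that of R05D3.8 and rfp-1 (ranks 231, 227 and 250) has ACCGTA and GAGACC without a full TACNGTA. The stretch of gei-14 and slc-25A32 (ranks 250, 252 and 242), only 66 bp long, has none of the words. The stretch between rpn-5, a subunit of the proteasome lid, and scc-1, the kleisin of mitotic cohesin, ranked 351, 341 and 394. There the summit and the single TACCGTA lie 29 bp from rpn-5 and 265 bp from scc-1.

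Shared promoters held more peaks per base than promoter windows of 1 strand. They make up 9.72% of all promoter-window bases (2.09 Mb, against 19.4 Mb in windows of 1 strand alone) and held 34.4% of the promoter peaks. That is 366 summits per Mb in shared windows and 75.2 per Mb in windows of 1 strand, a ratio of 4.86 (two-sided exact binomial test, p = 5.522e-219, outside the adjusted family of 8 tests). Background regions were spread more evenly: among the 26103 pooled regions ranked below the IDR peaks, density was 347 and 288 per Mb, a ratio of 1.204. Of the lower-ranked promoter regions 724 of 6310 (11.5%) lay in shared windows, against 763 of 2221 peaks (odds ratio 4.04, 95% interval 3.59 to 4.55, two-sided Fisher's exact test, Benjamini-Hochberg adjusted p = 1.615e-118). The ratio was 4.06 in the list of replicate 1 and 3.93 in that of replicate 2.

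Counted by gene, where every gene has a window of the same length, the arrangement also stood out. Of 19973 protein-coding genes, 2836 (14.2%) had a peak in the window, and 1461 (7.31%) had a shared-promoter peak there. Among the 5656 genes with a head-to-head neighbour, a gene of the other strand whose window overlaps, 1674 (29.6%) had a peak. Among the 14317 without one, 1162 (8.12%) did (odds ratio 4.76, 4.38 to 5.17, Fisher's exact test, adjusted p = 2.758e-302). The shares were 29.5% and 8.12% with the top 3897 regions of replicate 1, and 28.5% and 7.77% with those of replicate 2. Of the 763 peaks, 716 had exactly 2 genes in reach, 47 had 3 or more, and the most was 4. The count by gene is thus not independent of the count by base. Each shared summit marks a gene on each strand, and both are head-to-head genes. Of the 1461 genes, 1425 were reached by a shared summit alone. Fisher's exact test treated such genes as separate, and its p-value does not allow for peaks counted more than 1 time.

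The distance between the 5′ ends went with how often a shared promoter was bound. The windows of both strands form 2769 continuous shared stretches, and 709 of them (25.6%) held a summit. With 250 to 500 bp between the 5′ ends, 240 of 542 stretches were bound (44.3%, exact 95% interval 40.05 to 48.6), the highest share of the distance classes. The share was 28.4% of 373 (23.9 to 33.3) under 250 bp and 33.9% of 829 (30.7 to 37.2) from 500 to 1000 bp, and neither interval reaches that of the middle class. From 1000 to 2000 bp only 7.69% of 975 were bound (6.10 to 9.55), and of 50 stretches whose 5′ ends overlap, 7 (interval 5.82% to 26.7%). The stretches differ in length, yet per Mb the middle class also held the most summits, 559, against 453 under 250 bp, 346 from 500 to 1000 bp and 174 at 1000 to 2000 bp. The rule itself bears on the widest class. Past 1000 bp a summit at a gene's 5′ end lies outside the other gene's window and is not counted. The part left out grows with the distance, so the low values of that class, per stretch and per Mb, are a description.

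**Figure D1:**
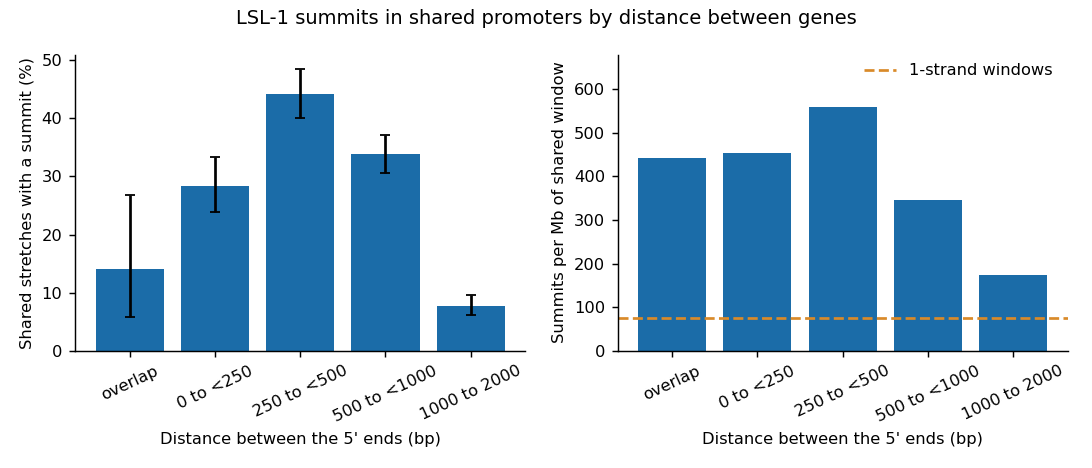
Left, the share of shared promoter stretches with a summit (y axis, %) by the distance between the 5′ ends (x axis, bp), with exact 95% intervals; right, summits per Mb of shared window, with the density in 1-strand windows as a dashed line at 75.2. The class from 250 to 500 bp is the highest in both panels (44.3% and 559 per Mb), and all classes lie above the dashed line.

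Over the 763 peaks the 5′ ends were a median of 519 bp apart. The extremes were -93 bp, where D2005.3 and D2005.4 overlap (rank 666), and 1919 bp, between cnx-1, the endoplasmic reticulum chaperone calnexin, and panl-3 (rank 259). The rec-1 and pif-1 pair, which joins a gene that sets crossover distribution in meiosis to one for a PIF1-type helicase, has a distance of -15 bp and ranked 333 in the pooled list, 359 in replicate 1 and 299 in replicate 2. The longest distances after cnx-1 were 1893 bp between Y54F10BM.12 and ppm-1.D (rank 910) and 1831 bp between egrh-2 and lep-2 (rank 606). The nearest 5′ end was a median of 152 bp from the summit and the farther one 358 bp, and 537 summits had both within 500 bp. For peaks in 1-strand windows the nearest 5′ end was a median of 259.5 bp away. The rule itself draws summits of shared windows nearer to a gene, so these medians are a description.

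Within the gap, summits sat toward the middle. Of the 763 peaks, 694 (91.0%) had the summit between both 5′ ends, against 482 of 724 (66.6%) for lower-ranked regions that meet the same rule (odds ratio 5.04, 3.75 to 6.86, Fisher's exact test, adjusted p = 1.554e-31). The share was 90.3% in replicate 1 and 89.1% in replicate 2. Of the summits in between, 457 of 694 (65.9%, exact interval 62.2 to 69.4) fell in the central 50% of the distance, against 285 of 482 (59.1%, 54.6 to 63.6) of the lower-ranked ones. The odds ratio for this was 1.33 (1.04 to 1.71, Fisher's exact test, unadjusted p = 0.0197), a comparison added after the values were seen. The central share was 66.9% in replicate 1 and 65.2% in replicate 2. In gaps above 1000 bp the rule itself draws summits of both groups inward, since they must lie within 1000 bp of each 5′ end. By distance, the central share of the peaks was 53.8% under 250 bp and 68.0% from 250 to 500 bp. It was 67.4% from 500 to 1000 bp and 65.9% from 1000 to 2000 bp. The remaining 69 summits lay past a 5′ end, by a median of 40 bp and at most 196 bp, and their median rank was 2052 against 1333 for those in between.

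**Figure D2:**
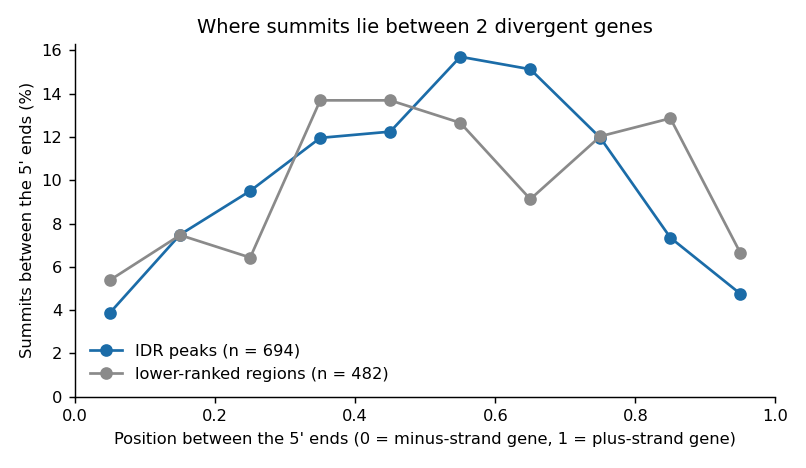
Share of the summits between both 5′ ends (y axis, %) in 10 equal parts of the distance from the minus-strand gene at 0 to the plus-strand gene at 1 (x axis), for 694 IDR peaks and 482 lower-ranked regions. The IDR peaks rise from 3.89% beside the minus-strand gene to 15.7% just past the middle and fall to 4.76% beside the plus-strand gene; the lower-ranked regions have no such single rise.

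Some promoters held more than 1 summit. The 763 peaks belong to 710 closest gene pairs, and 53 pairs had 2 summits. Summits of a pair lay 199 to 780 bp apart, with a median of 204 bp, and in 26 pairs each summit was the closest to a gene of its own. The median lies close to the lowest distance, below which no pair was listed, so it is not read as a spacing of binding sites. The strongest case was W03C9.5 and mex-1, an RNA-binding protein of the early embryo: 1 summit lay 194 bp upstream of mex-1 (rank 17) and the other 743 bp away, 156 bp upstream of W03C9.5 (rank 1133). At W01A8.2 and plin-1 each gene again had a closest summit of its own (ranks 44 and 3375), though these lay only 216 bp apart. At Y71H2AM.11 and cosa-1, a gene needed for meiotic crossovers, both summits (ranks 53 and 348, inside 1 deposited region) were closer to cosa-1. At klp-15, a kinesin, and ctnb-1 each gene had its own (ranks 74 and 2364), again inside 1 region. In 15 of the 53 pairs both summits came from the same deposited interval, where the caller split 1 region. Those 15 are exact matches of coordinates. Intervals of other pairs could overlap too, as at rps-10 and rpl-24.1, where both intervals start at the same base. Whether the summits of a pair are separate binding events was not tested.

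Shared-promoter peaks were stronger on the whole than peaks in windows of 1 strand. Ranks are the measure here, since the deposited signal value compares regions only within a list. Of the 763, 491 (64.4%) lay in the stronger 50% of the peaks, against 816 of 1458 (56.0%; odds ratio 1.42, 1.18 to 1.71, Fisher's exact test, adjusted p = 1.562e-04). The shares were 65.7% and 55.9% in replicate 1, and 64.7% and 56.9% in replicate 2. Against 1-strand peaks whose summit lay within 500 bp upstream of a 5′ end, 59.8% of which were in the stronger 50%, the odds ratio was 1.22 (Fisher's exact test, adjusted p = 0.0561). The difference was not called there, though only the 1-strand peaks were limited by position. With windows of 500 bp upstream for both classes the shares were 65.4% and 58.1%, and the difference was called (odds ratio 1.36, Fisher's exact test, adjusted p = 0.00457). Within the stronger 50% of peaks alone it was 1.203 (Fisher's exact test, adjusted p = 0.145).

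Shared promoters made up 29.1% of the strongest rank class of 974 peaks, then 21.4% and 17.2%, and 10.7% of the weakest. In replicate 1 the same shares were 29.4%, 21.9%, 16.7% and 10.1%, and in replicate 2 they were 29.2%, 22.3%, 16.2% and 11.8%. Both replicates thus gave the same order, falling at each step. Peaks in 1-strand windows also took a smaller share of the weakest class than of the strongest, with 44.5% and 33.3% in the pooled list, 44.6% and 32.8% in replicate 1, and 44.3% and 28.7% in replicate 2. Of the promoter peaks of both kinds, shared ones were 39.5% in the strongest class and 24.2% in the weakest.

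**Figure D3:**
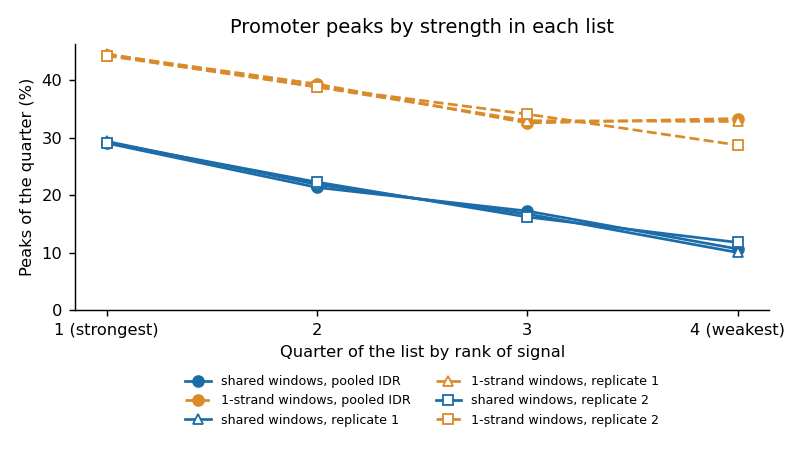
Share of the peaks in each rank class (y axis, %; x axis, 4 classes of equal size from strongest to weakest) that lie in shared windows (solid lines) and in 1-strand windows (dashed lines), for the pooled IDR list and the top 3897 regions of each replicate. Shared windows fall from about 29.1% to 10.7% in the pooled list, and the 3 solid lines lie close together.

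Most shared-promoter peaks were found in each replicate on its own. Among the top 3897 regions of each replicate, 731 of the 763 had a summit within 100 bp in replicate 1, 688 in replicate 2, 665 (87.2%) in both and 9 in neither. For 1-strand promoter peaks 1169 of 1458 (80.2%) were in both (odds ratio 1.68, 1.302 to 2.17, Fisher's exact test, adjusted p = 4.743e-05). That comparison moves with strength: in the strongest rank class the shares were 99.6% and 100%, and in the weakest 34.6% and 29.2%. In the full lists 746 of the 763 had a match in both replicates, and the summits of the replicates lay a median of 12 bp apart. Selection by IDR rests on both replicates already, which makes these shares a description.

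The word TACNGTA was concentrated at the summits, though less often than in 1-strand windows. Within 50 bp of the summit 183 of 763 peaks (24.0%, exact interval 20.99 to 27.2) held it on either strand, which is the same search since it reads alike on both. In a window of the same length 200 to 300 bp to the left, 3.80% did. There were 177 peaks with the word only at the summit and 23 with it only in the flank, a ratio of 7.70 (exact McNemar test, adjusted p = 2.487e-30). On the right side 2.62% of the flanks held it and the ratio was 13.5; with summits within 500 bp merged it was 17.5, and in the stronger 50% of the peaks 12.2. At the middle of the 2060 shared stretches with no peak 2.77% held the word, and at the 724 lower-ranked regions 5.39%. Peaks in 1-strand windows held it more often, at 34.2% (odds ratio 0.607, 0.494 to 0.742, Fisher's exact test, adjusted p = 9.320e-07).

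Split by its central base, a split chosen after seeing the data, the word differed between the classes in the version with T or A in the centre and not detectably in that with G or C. TACTGTA, which on the other strand reads TACAGTA, was at 9.04% of shared-promoter summits and 19.96% of those in 1-strand windows (odds ratio 0.399, 0.297 to 0.530, Fisher's exact test, p adjusted over 6 word tests = 4.497e-11). TACGGTA, which on the other strand reads TACCGTA, was at 15.9% and 15.4% (odds ratio 1.04, 0.809 to 1.33, Fisher's exact test, adjusted p = 0.758). That near equality is over all rank classes together, and the shares by class are given below. By replicate, the first word was at 9.21% against 20.2% and at 9.56% against 18.6%, and the second at 15.8% against 14.9% and at 15.9% against 15.1%. Soft-masked sequence, which the assembly marks as repeat or low complexity, moved with this. A summit was called soft-masked if more than 50% of the bases within 50 bp of it were so marked. That held for 21.9% of shared-promoter summits, 29.8% of those in 1-strand windows and 42.8% of those outside promoters. Among soft-masked summits TACTGTA was at 15.6% of shared-promoter and 38.9% of 1-strand ones. Among the other summits the shares were 7.21% and 11.9% (odds ratio 0.575, 0.390 to 0.835, Fisher's exact test, adjusted p = 0.00832), so the difference was smaller but still called. For TACNGTA as a whole it was not called among those other summits (22.5% against 26.7%, odds ratio 0.798, Fisher's exact test, adjusted p = 0.0750).

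Peaks with the word were among the strongest shared promoters. The 121 with TACGGTA had a median rank of 502 and the 642 without it 1576.5, and 92.6% against 59.0% lay in the stronger 50% (odds ratio 8.62, 4.28 to 19.7, Fisher's exact test, p adjusted over 4 words = 2.647e-14). For TACTGTA the odds ratio was 2.32 (1.24 to 4.62, Fisher's exact test, adjusted p = 0.00536) and for GGCGCA 1.90 (1.23 to 2.99, adjusted p = 0.00312). In the strongest rank class 32.2% of shared-promoter peaks held TACGGTA, then 10.1% and 4.17%, and 1.92% in the weakest. In 1-strand windows the same shares were 29.6%, 12.8%, 9.46% and 5.23%. Shared-promoter peaks thus held TACGGTA more often in the strongest class alone and less often in the others. The near equality over all peaks mixes these classes, and the difference within a class was not tested. GGCGCA was at 18.2% of shared-promoter summits, 3.15% of their flanks and 19.3% of 1-strand summits (odds ratio 0.929, 0.736 to 1.17, Fisher's exact test, adjusted p = 0.758). From the strongest to the weakest rank class it was at 20.1%, 23.1%, 15.5% and 7.69% of shared-promoter summits. In 1-strand windows these shares were 31.6%, 18.3%, 15.8% and 7.69%. The pooled values for GGCGCA thus mix a lower share in the strongest class with a higher one in the next, and neither difference was tested. There were 43 peaks with both TACNGTA and GGCGCA (median rank 484) and 484 (63.4%) with neither (median rank 1711).

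**Figure D4:**
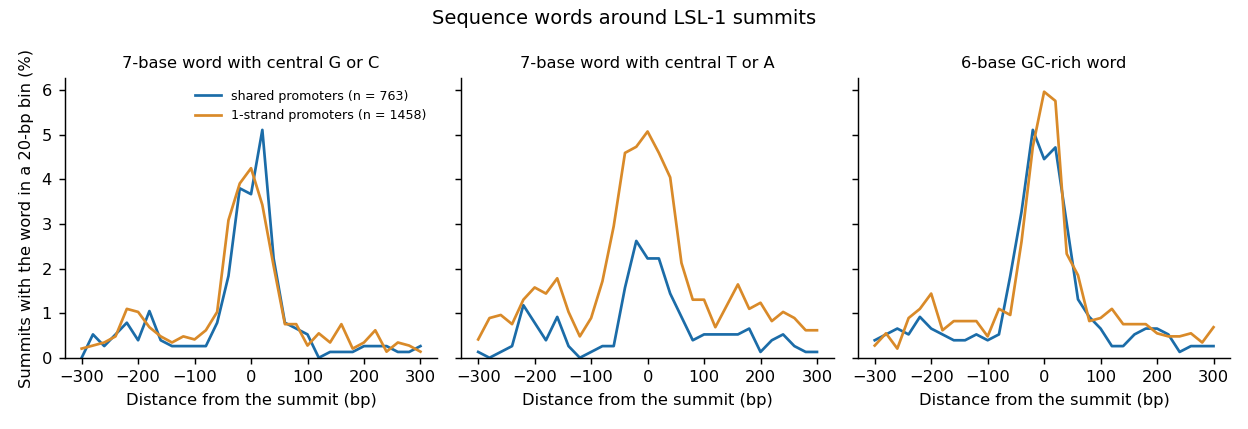
Share of summits with a word in each 20-bp bin (y axis, %) by distance from the summit (x axis, bp), for 763 shared-promoter peaks and 1458 peaks in 1-strand windows; the panels show the 7-base word with a central G or C, that with a central T or A, and the 6-base GC-rich word. In the left and right panels both classes rise to like heights at the summit, while in the middle one shared promoters stay at 2.62% or below.

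A search without a preset word put a part of TACCGTA first, while its other leading words were not parts of TACNGTA. All 2080 pairs of a 6-base word and its reverse complement were ranked on chromosomes I, III and V by how much more often they lay at the 487 shared-promoter summits there than in the flanks, and the 8 leading words were tested on the 276 of II, IV and X. First came ACCGTA, 6 of the 7 bases of TACCGTA, at 26.4% of the held-out summits and 4.35% of the flanks (exact McNemar test, p adjusted over 8 words = 3.134e-11). GAGACC was at 21.01% against 4.35% (exact McNemar test, adjusted p = 6.837e-09) and the overlapping CGAGAC at 20.3% against 5.43% (2.678e-07). The other 5 words are mostly runs of G and C in turn, such as ACGCGC, and were at 6.88% to 18.1% of summits and 0.362% to 3.99% of flanks. GC content moved with these, with a median of 44.6% within 50 bp of shared-promoter summits and 37.6% at lower-ranked ones, and its part was not tested. Over all 763 members ACCGTA was at 26.1% and GAGACC at 20.8%, against 2.38% and 2.86% of the unbound shared stretches. None of the 8 differed between shared-promoter and 1-strand summits of the same chromosomes after adjustment (Fisher's exact test, odds ratios 0.632 to 1.38, adjusted p from 0.410 to 1).

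Genes for basic cell functions and germline genes had shared-promoter peaks far more often than sperm and somatic genes. The lists of genes named here were drawn up by symbol, and each count stands beside the 7.31% of all protein-coding genes that have a shared-promoter peak. By the rule only a gene with a head-to-head neighbour can have such a peak, and 28.3% of all protein-coding genes had that neighbour. The shares of the lists therefore also carry how their genes are arranged. In the chromosome segregation list 43 of 67 genes (64.2%) had one, the largest share of the 22 lists, and among cytosolic ribosomal proteins 44 of 81 (54.3%). Strong examples for segregation were aspm-1, a spindle-pole protein (ranks 23, 21 and 25 in the pooled list and both replicates), hcp-4, the worm CENP-C of the centromere (26, 23 and 38), and klp-18, a kinesin of the oocyte spindle (39, 44 and 29). Partners of these were lipt-1, a lipoyltransferase, pgk-1, the glycolytic phosphoglycerate kinase, and cogc-2, a Golgi tethering subunit. Other basic lists followed with 15 of 33 proteasome genes, 17 of 39 nuclear pore genes, 20 of 50 splicing genes, 21 of 55 stress and chaperone genes and 22 of 58 replication and cell cycle genes. Lower shares came from the respiratory chain (14 of 46), mitochondrial ribosomal proteins (19 of 66), chromatin (15 of 56), the transcription machinery (19 of 83), and tRNA synthetases with translation factors (9 of 42).

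Among germline lists, meiosis had 22 of 55 genes at a shared-promoter peak, germ granules and small RNA 21 of 58 (36.2%), germline RNA regulators 13 of 47 (27.7%) and oocyte and eggshell genes 5 of 30 (16.7%). For meiosis the strongest were coh-4, cosa-1 (ranks 53, 58 and 37) and coh-3, another meiotic kleisin (60, 57 and 58). For germ granules they were pid-5, the helicase gene glh-2 (111, 97 and 139) with a summit 10 bp from its 5′ end, and the Argonaute gene wago-4 (247, 250 and 225). For oocytes the strongest was cbd-1, an eggshell protein (314, 332 and 261). Sperm genes were at the other end with 4 of 95 (4.21%), 2 of them the facing pair spe-44 and smz-1 (1145, 1061 and 1556). Somatic lists were lower still, with 5 of 274 nuclear hormone receptors, 4 of 173 cuticle collagens, 2 of 171 neuronal genes, 5 of 1310 chemoreceptors and 0 of 41 muscle genes. In the same order, 46, 42, 22, 297 and 3 of these genes had a head-to-head neighbour at all. Of the 95 sperm genes 48 had one, and of the 67 chromosome segregation genes 50.

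Lists differ in how many of their genes have a head-to-head neighbour, so each was also split by that. Among cytosolic ribosomal protein genes 92.2% of the 51 with a head-to-head neighbour and 76.7% of the 30 without had a peak of any kind. The split was wide for chromatin genes (85.7% of 21 against 25.7% of 35), stress and chaperone genes (84.0% of 25 against 23.3% of 30), mitochondrial ribosomal proteins (71.4% of 28 against 23.7% of 38) and splicing genes (74.1% of 27 against 30.4% of 23). For germline RNA regulators (77.8% of 18 against 75.9% of 29), oocyte and eggshell genes (63.6% of 11 against 63.2% of 19) and the proteasome (66.7% of 24 against 66.7% of 9) the shares were close, in lists this small. Pooled over the 4 germline lists, 69 of 92 head-to-head genes and 59 of 98 others were bound, and over the 12 basic lists 278 of 365 and 124 of 311. Over the 5 somatic lists it was 17 of 410 and 15 of 1559. These are descriptions, with no test, beside 29.6% and 8.12% for all genes.

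**Figure D5:**
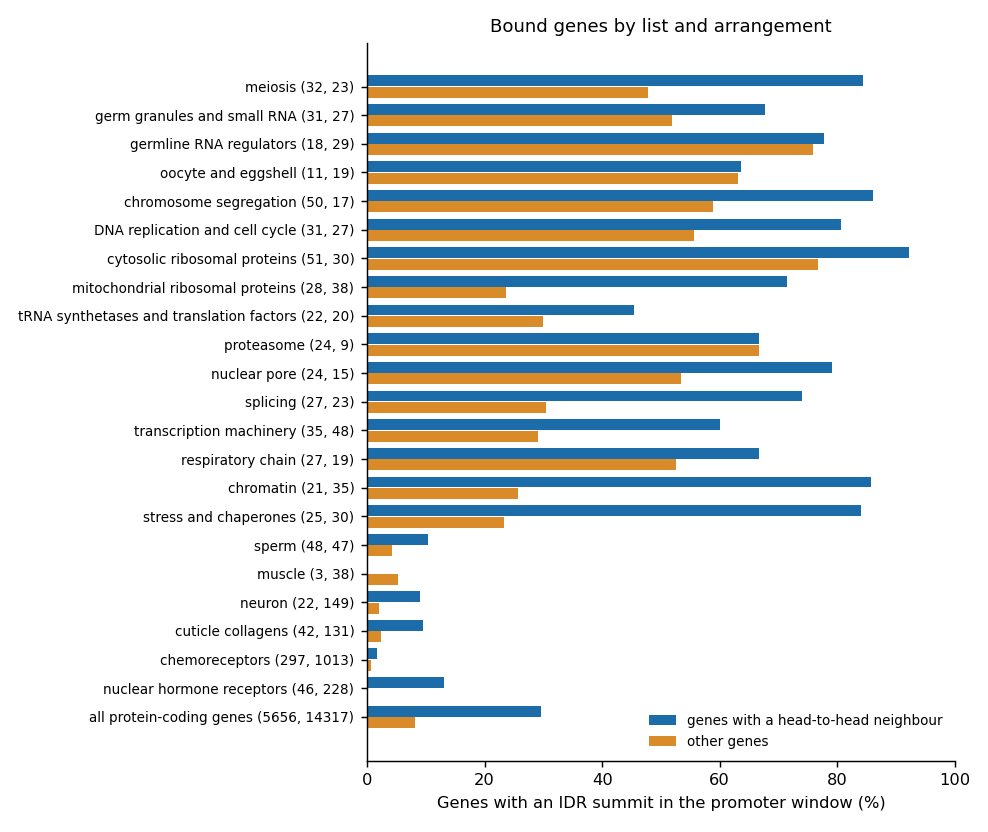
Share of the genes of each list with an IDR summit in the promoter window (x axis, %), for genes with a head-to-head neighbour and for other genes; the numbers after each name are the genes of both kinds. In 20 of the 22 lists the bar for head-to-head genes is the longer, the proteasome bars are equal at 66.7%, and muscle, with 3 head-to-head genes, has none bound.

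In 39 peaks both closest genes were in a list, in 284 a single one was, and in 440 neither was. The strongest of the 39, after coh-4 and pid-5, joined npp-3, a nucleoporin, and top-2, DNA topoisomerase II (ranks 45, 45 and 52). Next came cox-16, an assembly factor of cytochrome c oxidase, and syp-2, a synaptonemal complex protein (69, 68 and 75), where the summit lay 147 bp past the 5′ end of syp-2. The pair of ifet-1, a translational repressor of the germ line, and rps-1 (81 in the pooled list, 69 in replicate 1 and weaker than either in replicate 2) joined a germline and a ribosomal gene, as did ify-1, the securin, and rpl-22 as a segregation gene and a ribosomal one (203, 192 and 237). A pair of germline genes shared the promoter of rec-8, a meiotic kleisin, and mex-5, an RNA-binding polarity protein (133, 125 and 173), and there were 3 such peaks in all. Pairs of 1 kind were rps-10 with rpl-24.1, both ribosomal (292, 300 and 282), and snr-3 with rsp-5, both of splicing (321, 328 and 322). Also bound were mei-2, a katanin subunit, with syp-6 (215, 213 and 230), and pas-4 of the proteasome with rpb-3 of RNA polymerase II (440, 436 and 431). The last of the 12 strongest set a collagen gene, col-38, against rpl-5 (535, 534 and 575), and in that pair the summit lay 434 bp from col-38 and 405 bp from rpl-5.

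Where 1 gene was listed and the other was not, no side was called. The summit was closer to the listed gene in 129 of 284 peaks (45.4%, exact interval 39.5 to 51.4, two-sided exact binomial test, adjusted p = 0.138). In replicate 1 this was 44.96% and in replicate 2 46.8%. The test missed the threshold, and the interval holds an even split near its upper end. The call depended on settings: with windows of 500 bp upstream it was 42.3% (exact binomial test, p = 0.0371), and for germline lists alone 50.8% (p = 1).

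Shared promoters of the X chromosome were rarely bound, and this was not particular to them. Of the 14317 genes without a head-to-head neighbour 11957 lie on autosomes, and so do 1149 of the 1162 bound ones. Among 1-strand promoter peaks 1446 of 1458 were on autosomes. Of 184 shared stretches on X, 4 were bound (2.17%), against 177 of 469 on I (37.7%), 125 of 507 on II (24.7%), 170 of 423 on III (40.2%), 122 of 480 on IV (25.4%) and 111 of 706 on V (15.7%). The 5 peaks on X ranked 1363 or lower. They lay between T08D2.6 and chkr-1 (1363, 1377 and 1382), between trap-2, a subunit of the translocon-associated complex, and ile-2 (1473, 1546 and 1402), between dnj-14, a J-domain co-chaperone, and glit-1 (2835, 3056 and 2511), and with 2 summits at Y73B3A.1 and Y73B3A.20. Of those, the summit of pooled rank 2761 had no match in replicate 1 and ranked 3440 in replicate 2, and that of rank 2897 ranked 2614 and 14276. With autosomes alone, every result recomputed stayed on its side of the threshold. The lsl-1 gene itself shares its promoter with mom-4, a kinase of Wnt signalling, and the peak there ranked 845, 848 in replicate 1 and 838 in replicate 2. Its summit lay 71 bp past the 5′ end of lsl-1, and reads of the transgene could not be told apart from those of the native gene.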

How the data were processed

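Per the notes deposited with the samples, the submitters called regions on ce11 (WBcel235) for each replicate and for the pool of both, using a control library that is not analysed here. Caller, aligner and IDR threshold are not given here, since no source used states them. Signal values are deposited as a score on the caller's own scale and served only for ranks inside 1 list. No test used the deposited −log10 q-values. The deposited offset gave the summit; 2 offsets reach the region's last base or beyond. The 3897 IDR peaks are the top of the pooled list of 30000 regions, so each replicate's list, of 30000 and 26018 regions, was also taken to 3897.

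Protein-coding and tRNA genes came from Ensembl release 115 and sequence from RefSeq. The members and the 22 gene lists were chosen with earlier results of these data known. No symbol was found for 10 list entries, and 12 listed symbols name more than 1 gene. Genes named are the closest pairs of the 12 strongest peaks, up to 3 leading genes of a list, up to 12 pairs with both genes listed, and the extremes of distance and chromosome. Sequences are the 5 strongest stretches of 60 to 300 bp that hold the summit and windows at 6 further strongest peaks, all off chromosome I and free of annotated exons. Benjamini-Hochberg adjustment ran over 8 tests with a threshold of 0.05. All tests were two-sided: Fisher's exact, exact McNemar or exact binomial. Scripts were tested on simulated data. Tools were scipy 1.17.1, pandas 2.3.3, numpy 2.4.6 and matplotlib 3.10.9 under Python 3.11.15.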

Additional observations from a re-analysis of the deposited data

How the results depend on the processing

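No paired analysis was possible because there is 1 group. Alternatives were other windows, midpoints, merged summits, no tRNA limit, autosomes alone, other match distances, other word windows and flanks, the words ACAGTA or else CTACAG, and each replicate's own list; the word TACNGTA split by its central base, GGCGCA in its place, leaving out listed genes, repeated intervals or soft-masked summits, the strength and GC classes and the closer 1-strand summits were chosen after seeing the data. Of 13 alternatives for strength, 11 kept the call; the odds ratio was 1.203 within the stronger 50% of peaks and 1.22 against 1-strand summits within 500 bp upstream. The share closer to the listed gene passed the threshold with windows of 500 bp (42.3%) and with summits within 500 bp merged (43.3%), below 50% both times, and was 50.8% for germline lists alone. For words against 1-strand peaks the odds ratio was 1.04 with TACGGTA, 0.929 with GGCGCA and 0.798 without soft-masked summits. With the same sign and call, TACNGTA gave 0.295 in the weakest rank class and CTACAG 0.328, the flank ratio ran from 3.50 with CTACAG to 17.5 with merged summits (13.5 on the right side), and that for summits between the 5′ ends from 3.08 with windows of 2000 bp to 7.19 in the stronger 50%. The cause of these shifts was not tested.

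Without replicate 1 or without replicate 2, taking the other replicate's list, ranges of the odds ratios were 1.39 to 1.51 for strength, 3.93 to 4.06 for the share of shared windows, 4.73 to 4.74 for genes, 4.61 to 4.69 for summits between the 5′ ends and 0.612 to 0.665 for TACNGTA, with 6.31 to 7.70 against flanks and 44.96% to 46.8% for the listed gene. With windows that end at the 5′ end every summit lies between the genes by construction, so no value was given there. The depth is unknown, so a gene without a peak is not shown to be free of LSL-1.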

Other observations

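Summits of shared-promoter peaks were more often closer to the plus-strand gene than to the minus-strand gene, 424 of 763 (55.6%, exact interval 51.96 to 59.1, exact binomial test, unadjusted p = 0.00234). The share was 54.7% in the top list of replicate 1 and 55.5% in that of replicate 2. With region midpoints in place of summits it was 54.9%. Lower-ranked regions that meet the same rule leaned the same way, with 430 of 724 (59.4%, 55.7 to 63.0), and in the replicates' lists 60.03% and 57.7%. The source of the lean was not tested.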
